A study of Homo sapiens with 12 samples.

Results

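The genes described here were CSMD1 and 9 core genes of TGF-beta SMAD signalling, found by symbol in a count table of 25370 genes from T47D cells. All 10 symbols (CSMD1, TGFB1, TGFBR1, TGFBR2, SMAD2, SMAD3, SMAD4, SMAD7, SKI and SKIL) had a row. T47D is a human breast cancer line that expresses the estrogen receptor. Aromatase, encoded by CYP19A1, turns androgens into estrogens such as 17β-estradiol (E2), and anastrozole inhibits it. The cells had been kept for 48 hours in medium with 5% charcoal-stripped serum and for 24 hours without serum. They then received vehicle, 10 nM anastrozole, 0.1 nM E2, or both agents at those doses, with 3 replicates (a, b and c) per group. The sample labels give 12 hours of treatment, and the study's methods give a longer time.

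TGF-beta ligands are secreted in a latent form and bind the type II receptor TGFBR2, which recruits and phosphorylates the type I receptor TGFBR1. The active receptor phosphorylates SMAD2 and SMAD3, which join SMAD4 and enter the nucleus to regulate genes. SMAD7 blocks the receptor, and SKI and SKIL are nuclear corepressors that hold SMAD complexes inactive. In normal breast epithelium the pathway restrains proliferation. CSMD1 is a very large membrane protein with CUB and sushi domains and inhibits complement. It lies on chromosome 8 from position 2792875 to 4852494, and SMAD3 lies on chromosome 15 from 67356101 to 67487511 (GRCh37, which shares its main chromosomes with the hg19 build of the files).

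Reads counted on genes ranged from 9914253 (anastrozole b) to 17009776 (E2 b) per library. Anastrozole a and c differed most among replicates: against counting error their chi-square over its degrees of freedom was 4.62, and 1.27 to 2.56 for the other pairs within groups. Levels are given as CPM, counts scaled to a common total of reads on genes with TMM factors. A floor of 3 counts corresponded to between 0.177 and 0.303 CPM and covers counting error only. The label of the cells was checked on 9 luminal markers, KRT19 being the most abundant in every library. They summed to between 11094 and 11188 CPM in vehicle and to between 10134 and 10972 CPM in the other 9 libraries. With E2, 5 of the 9 passed the threshold, beside 12% of all genes, and all 5 were lower (KRT19 -0.16, KRT8 -0.10, FOXA1 -0.14, ESR1 -0.14 and CDH1 -0.08), and 3 of 9 were lower with the GC trend removed. Of 12 markers of other cell types, PTPRC, PECAM1, PDGFRA, COL1A2, DCN and KRT5 were at or under the floor in all 12 libraries, and VIM, THY1 and CD68 were over it in all 12. These 12 markers summed to 6.39, 6.77 and 8.01 CPM in the vehicle libraries and to between 8.68 and 11.3 CPM in the other 9. The part of these differences in the results was not tested. CD68 was higher with anastrozole (log2 difference 0.71, adjusted p = 0.00507, edgeR) and E2 (0.55, adjusted p = 0.0153), and VIM with E2 (0.70, adjusted p = 0.0432) and both agents (0.74, adjusted p = 0.0449). Each of these 4 calls was lost without some single libraries and by limma-voom, with adjusted p up to 0.395. The most abundant of the 12 was CD68, at 3.12 to 7.14 CPM, and 81.6% of the exon bases of CD68 are shared with another annotated gene on the same strand. In bulk RNA, fewer cells of a type and less RNA per cell cannot be told apart. The estrogen-responsive gene GREB1 was lower with anastrozole than with vehicle (473 ± 8.29 against 522 ± 12.2 CPM, SD, n = 3) and higher with E2 (570 ± 8.94 CPM) and with both agents (592 ± 6.35 CPM). Of 6 estrogen-responsive genes (GREB1, PGR, TFF1, PDZK1, CXCL12 and RARA), 3 passed with anastrozole, all lower, and 2 with E2 and 2 with both agents, all higher. Over all genes, 3.67% passed with anastrozole, 12% with E2 and 5.04% with both agents. PGR was lower with anastrozole (-0.13, adjusted p = 0.0262, up to 0.439 with 1 library left out), and so was CXCL12 (-0.14, adjusted p = 0.0466, up to 0.294). Both were lost by filterByExpr, DESeq2 and limma-voom, and CXCL12 with a replicate block too. PGR did not pass with E2 (0.06, adjusted p = 0.101) or both agents (-0.01, adjusted p = 0.934), and TFF1 and PDZK1 passed in no comparison with vehicle. Without vehicle b, PGR passed with E2 (adjusted p = 0.000442), and without E2 a so did PDZK1 (adjusted p = 0.0432). The GREB1 call with anastrozole (adjusted p = 0.0294) was lost without any 1 vehicle library, without anastrozole a or b (adjusted p from 0.00212 to 0.247), and by limma-voom (adjusted p = 0.116). RARA was higher with E2 (0.15, adjusted p = 0.0114, up to 0.149 with 1 library left out) and with both agents (0.29, adjusted p = 1.7e-08). The RARA call with E2 was also lost by DESeq2 and limma-voom (adjusted p up to 0.0773).

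Transcripts of 9 of the 10 genes were present in every library, and those of the type II receptor were close to absent. TGFBR2 had 0, 1 and 0 counts in vehicle (replicates a, b, c) and 0, 0 and 3 counts in the anastrozole libraries. It had 0, 2 and 1 counts with E2 and 0, 0 and 3 counts with both agents. No library exceeded the floor, so no fold is given for TGFBR2. Its partner TGFBR1 had between 1097 and 2125 counts per library. Per kilobase of the canonical transcript, TGFBR1 was at 18.8 ± 0.614 CPM in vehicle (SD, n = 3) and stood first among the 10 genes. It was followed by SKIL at 14.9 ± 1.54 and by SMAD4 at 6.98 ± 0.394 and SKI at 5.86 ± 0.218 CPM per kilobase. SMAD3 was at 3.37 ± 0.213 and SMAD7 at 3.04 ± 0.253 CPM per kilobase, a difference no larger than their summed SDs. TGFB1 (2.32 ± 0.36) and SMAD2 (2.25 ± 0.0777) could not be separated either, and CSMD1 was at 1.02 ± 0.0538 CPM per kilobase. With the length of all annotated exons in place of the canonical transcript, SKI stood above SMAD4, and SMAD7 above SMAD3. The annotated SMAD2 transcript has 34626 bases, so its level per length would be higher had a shorter form been used for it.

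The other pathway genes placed these levels in context. Of the 3 TGF-beta ligands, TGFB3 had the highest level per length in vehicle, at 23.5 ± 0.979 CPM per kilobase, against 2.32 ± 0.36 for TGFB1 and 0.989 ± 0.057 for TGFB2. This order also held over all annotated exons. CTGF, an inducible pathway target, had at most 5 counts in any library. Other listed targets differed widely in level, and 19 of the 20 exceeded the floor in at least 1 library. In vehicle THBS1 was at 106, BHLHE40 at 73.4 and CDKN1A at 53.4 CPM per kilobase, while TGFBI was at 0.402 and SNAI1 at 0.851. The mesenchymal regulators ZEB1, ZEB2 and SNAI2 were at or under the floor in all 12 libraries, while SNAI1 had between 14 and 47 counts. CYP19A1, the target of anastrozole, had no count in any vehicle or anastrozole library and at most 2 elsewhere. CSMD2 and CSMD3, the relatives of CSMD1, had at most 1 and 3 counts.

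**Figure D1:**
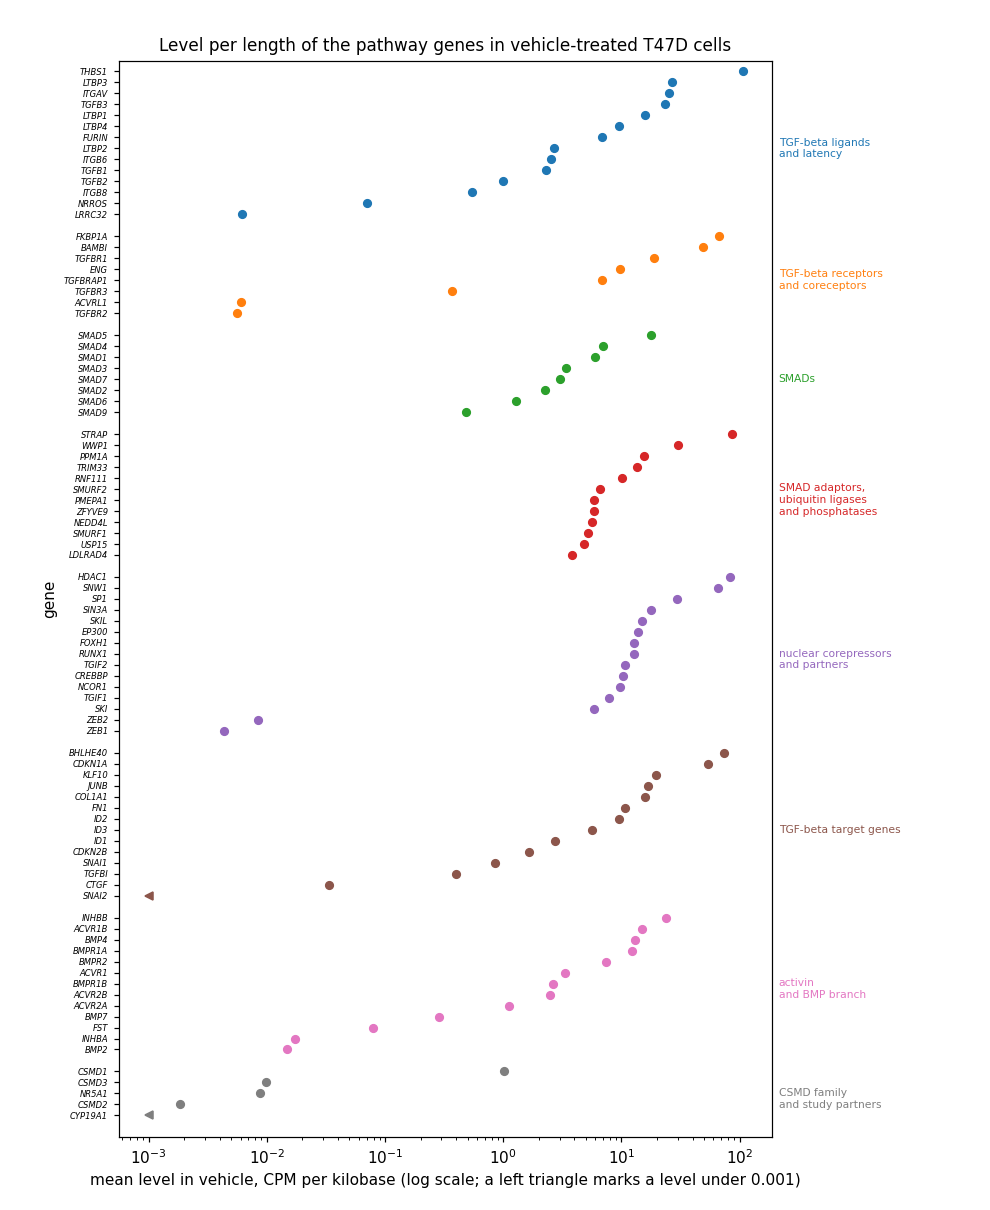
Mean level in 3 vehicle libraries of listed pathway genes, in CPM per kilobase of canonical transcript on a log scale, grouped by role. TGFBR1 is at 18.8 CPM per kilobase while TGFBR2 (1 count in 3 libraries) sits at the lower end among receptors, and TGFB3 lies above TGFB1 and TGFB2.

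Promoter sequences are shown for the receptor pair that differed so widely in level and for SKIL, the corepressor whose change is described further on. Of the 10 genes, 8 had an entry in the RefSeq promoter table (GRCh38.p14). The first entry listed for a gene was taken, and which start T47D cells use was not tested. The 250 bases before the start are given 5′ to 3′ on the plus strand, in lower case with GC boxes (GGGCGG, either strand) in capitals. They lie at chr9:99104863-99105112 for TGFBR1, chr3:30606106-30606355 for TGFBR2 and chr3:170357465-170357714 for SKIL.
TGFBR1: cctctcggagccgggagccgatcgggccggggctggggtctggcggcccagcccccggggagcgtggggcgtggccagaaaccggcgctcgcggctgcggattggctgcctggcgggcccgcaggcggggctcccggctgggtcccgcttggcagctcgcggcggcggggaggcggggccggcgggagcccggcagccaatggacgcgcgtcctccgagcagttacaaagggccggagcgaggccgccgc
TGFBR2: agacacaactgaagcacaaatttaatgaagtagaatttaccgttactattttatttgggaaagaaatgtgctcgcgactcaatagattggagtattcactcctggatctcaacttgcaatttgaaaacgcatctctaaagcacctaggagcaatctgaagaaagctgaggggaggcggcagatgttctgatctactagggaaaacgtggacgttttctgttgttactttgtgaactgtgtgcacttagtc
SKIL: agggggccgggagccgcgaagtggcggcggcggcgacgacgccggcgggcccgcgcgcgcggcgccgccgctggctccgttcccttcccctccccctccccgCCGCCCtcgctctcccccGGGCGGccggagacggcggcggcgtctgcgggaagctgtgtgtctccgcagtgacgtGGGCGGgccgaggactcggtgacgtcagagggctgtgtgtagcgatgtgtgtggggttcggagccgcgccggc
G and C made up 79.6% of the TGFBR1 window, 40.8% of the TGFBR2 window and 78.4% of the SKIL window, against a median of 58% over 35116 promoters. The SKIL window held 3 GC boxes and the receptor windows none. Such a box was present in 42.6% of all windows and in 5 of the 8 members. The paired SMAD box GTCTAGAC (0.182% of windows), the estrogen response element GGTCANNNTGACC (0.0399%) and the AP-1 site TGAGTCA (4.2%) were in none of the 8. A match or its lack describes only these letters in this window.

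The effect of each treatment was first asked for CSMD1. In vehicle its replicates a, b and c were at 14.96, 13.84 and 15.33 CPM, and with anastrozole at 14.86, 15.97 and 13.35 CPM. With E2 it was at 12.4, 12.2 and 12.0 CPM, and with both agents at 13.1, 12.7 and 15.2 CPM. The 3 E2 libraries were the lowest of all 12, and the other groups overlapped. The log2 difference between E2 and vehicle was -0.27 (SE 0.11), lower in 3 of 3 libraries, but it did not pass the threshold (adjusted p = 0.0784, unadjusted p = 0.0114, edgeR quasi-likelihood test). Over the other ways of processing, the adjusted p lay between 0.0504 and 0.0806. The difference between anastrozole and vehicle was -0.0009 (SE 0.11, adjusted p = 1), and that between both agents and vehicle was -0.11 (SE 0.10, adjusted p = 0.706).

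SMAD3, the receptor-activated SMAD, had overlapping levels in all 4 groups. It was at 20.2, 22.4 and 22.8 CPM in vehicle and at 20.7, 24.2 and 22.8 CPM with anastrozole. It was at 21.7, 19.4 and 22.5 CPM with E2, and at 22.5, 21.4 and 23.1 CPM with both. Its log2 differences from vehicle were 0.04 (SE 0.09), -0.05 (SE 0.09) and 0.03 (SE 0.08) for anastrozole, E2 and both, none past the threshold. A value inside that error does not show that SMAD3 was the same in all groups. SMAD2 ranged from 74.6 to 82.4 CPM and SMAD4, the shared partner, from 54.6 to 68.5 CPM, with neither past the threshold in any comparison.

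Across the 3 comparisons with vehicle, 776 of 21132 genes (3.67%) passed an adjusted p of 0.05 with anastrozole, 2537 (12%) with E2 and 1065 (5.04%) with both. With 1 library left out, between 191 and 1651 genes passed with anastrozole, the highest number being that without anastrozole c. With anastrozole alone none of the 10 members passed by edgeR, DESeq2 or limma-voom. At an unadjusted p under 0.05 there was 1 member by edgeR, 0 by DESeq2 and 1 by limma-voom, beside 3198, 1698 and 3089 genes in all. With E2, 2 members passed, both corepressors and both lower. With both agents 2 passed, TGFB1 higher and TGFBR1 lower. DESeq2 and limma-voom each called 0 members in these 2 comparisons, with 2 and 4 under an unadjusted p of 0.05 for E2 and 2 and 2 for both agents. Over all genes 3002 and 1726 were under that p by DESeq2, and 4738 and 3196 by limma-voom. The members' counts of 0, 2 and 2 of 10 rest on few genes and say nothing of the set as a whole. The median log2 difference of the 9 members over the floor was -0.0009 with anastrozole, -0.05 with E2 and -0.06 with both, beside a median of 0.00 over all genes in each comparison.

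**Figure D2:**
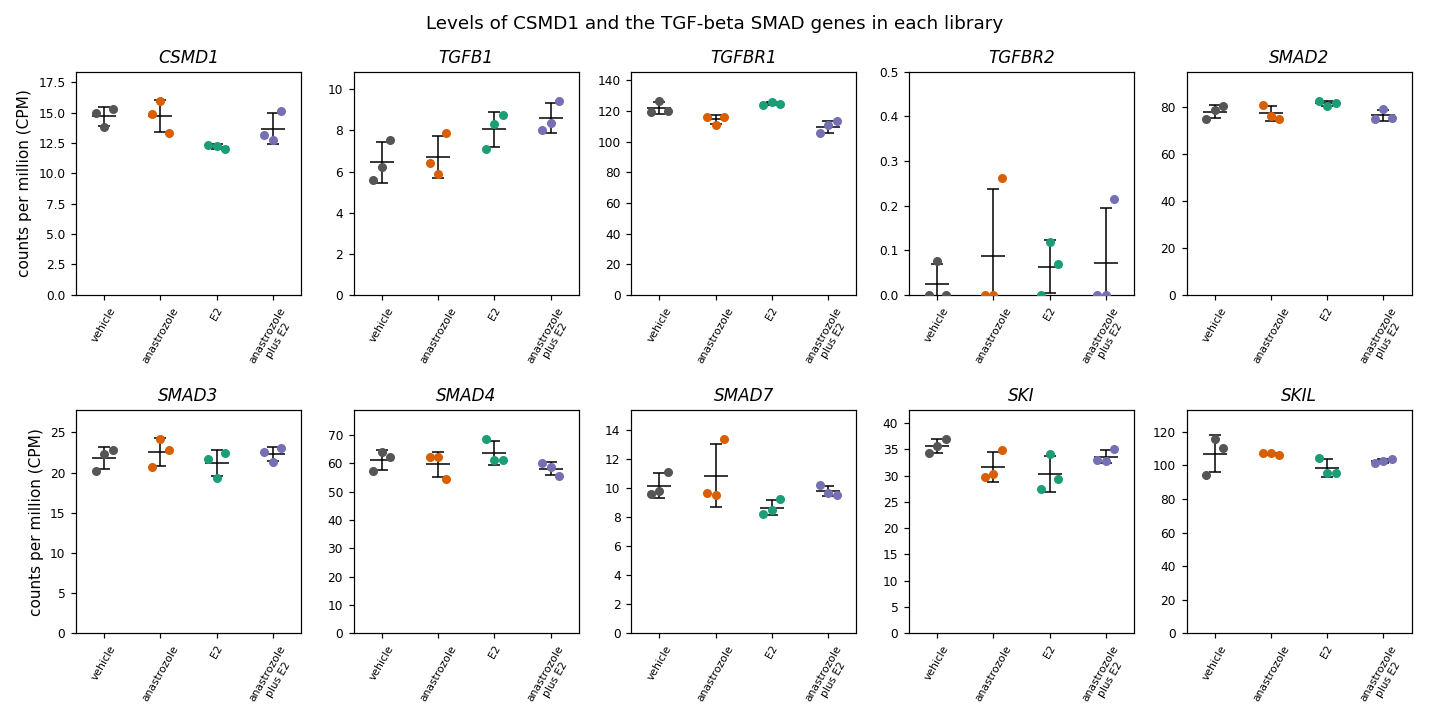
Level of each of the 10 genes in CPM (vertical axes start at 0) in the 3 libraries of each treatment group (points; horizontal bar, mean; whiskers, SD). The E2 libraries are the lowest for CSMD1 at 12.0 to 12.4 CPM, the libraries with both agents are low for TGFBR1, and TGFBR2 stays under 0.3 CPM.

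SKI was lower with E2 than with vehicle. It was at 34.3, 35.7 and 36.95 CPM in vehicle (a, b, c) and at 27.4, 34.1 and 29.4 CPM with E2. All 3 E2 values were under the lowest vehicle value, though E2 b was close to it. The log2 difference was -0.22 (SE 0.07, adjusted p = 0.0103, edgeR). The anastrozole values were 29.8, 30.3 and 34.9 CPM and those with both agents 32.9, 32.8 and 35.1 CPM, each overlapping vehicle. The SKI exons are rich in G and C (61.7%), and log2 differences followed GC content across genes in this comparison (Spearman -0.55 over 10847 genes, which are not independent). With each library's trend on GC removed, the SKI difference was -0.10 (adjusted p = 0.417), and over all alternatives the adjusted p ran from 0.00832 to 0.417. Without vehicle c, E2 a or E2 c it also missed the threshold, the adjusted p running from 0.00112 to 0.166 over the 6 fits with 1 library left out. The SKI difference with anastrozole was -0.17 (adjusted p = 0.247), which passed only without anastrozole c (adjusted p = 0.0403).

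SKIL, the related corepressor that is itself a transcriptional target of the pathway, differed less from vehicle with E2 than SKI. With the GC trend removed this order was turned. It was at 94.5, 116 and 110 CPM in vehicle, and at 104, 95.5 and 95.7 CPM with E2. Vehicle a lay below all E2 values, so the groups overlapped. It was at 107, 108 and 106 CPM with anastrozole and at 101, 102 and 104 CPM with both. The log2 difference for E2 was -0.12 (SE 0.04, adjusted p = 0.046). SKIL exons hold 36.6% G and C, and with the GC trend removed the difference was -0.22 (adjusted p = 3.9e-06). It was above the threshold with filterByExpr, DESeq2, limma-voom, 1 fit of all 12 libraries and a replicate block, up to an adjusted p of 0.374. Without vehicle b, vehicle c, E2 b or E2 c it also missed the threshold (adjusted p from 0.000519 to 0.487 over the 6 fits). The change of both corepressors thus moved with the correction for GC content, in opposite senses, and the source of the GC trend was not tested.

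TGFB1 was higher with both agents than with vehicle. It was at 5.58, 6.24 and 7.55 CPM in vehicle and at 8.02, 8.35 and 9.44 CPM with both, without overlap. With anastrozole it was at 6.42, 5.86 and 7.85 CPM and with E2 at 7.10, 8.33 and 8.75 CPM, both overlapping vehicle. The log2 difference for both agents was 0.41 (SE 0.13, adjusted p = 0.0369), and that for E2 was 0.33 (SE 0.14, adjusted p = 0.105). Removing the GC trend made these 0.42 (adjusted p = 0.0241) and 0.45 (adjusted p = 0.0174). Over all alternatives the adjusted p for both agents ran from 0.0159 to 0.322. It missed the threshold without vehicle a, vehicle b, or replicate b or c of the combination (adjusted p from 0.0154 to 0.251). For E2 the threshold was passed without vehicle c (adjusted p = 0.0469). TGFB1 shares 6.59% of its exon bases with HNRNPUL1 on the opposite strand, and the strand setting of the counting is not given in the sources used here.

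TGFBR1, the type I receptor, was lower with both agents. It was at 119, 126 and 120 CPM in vehicle and at 105, 110 and 113 CPM with both, without overlap. With anastrozole it was at 116, 111 and 116 CPM, each under the lowest vehicle value, and with E2 at 124, 126 and 125 CPM, inside the range of vehicle. The log2 difference for both agents was -0.15 (SE 0.04, adjusted p = 0.0112). Against E2, both agents gave -0.19 (SE 0.04, adjusted p = 0.000108), where 1 of 10 members passed beside 6.74% of all genes. With the GC trend removed the first was -0.15 (adjusted p = 0.00369) and the second -0.11 (adjusted p = 0.206), while anastrozole alone reached -0.15 (adjusted p = 0.016) from -0.09 (adjusted p = 0.414). The alternatives' adjusted p ran from 0.000585 to 0.115 against vehicle, from 8.02e-05 to 0.219 against E2 and from 0.0112 to 0.432 for anastrozole. The call against vehicle was lost without vehicle b, or replicate a or b of the combination (adjusted p from 0.0108 to 0.118).

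SMAD7, which blocks the receptor and is induced by the pathway, was lowest with E2. It was at 9.54, 9.81 and 11.1 CPM in vehicle, at 9.66, 9.50 and 13.4 CPM with anastrozole, and at 10.2, 9.67 and 9.51 CPM with both. The E2 libraries, at 8.20, 8.51 and 9.23 CPM, lay under all others. The log2 difference between E2 and vehicle was -0.23 (SE 0.12, adjusted p = 0.242) and did not pass. With the GC trend removed it was -0.16 (adjusted p = 0.545).

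**Figure D3:**
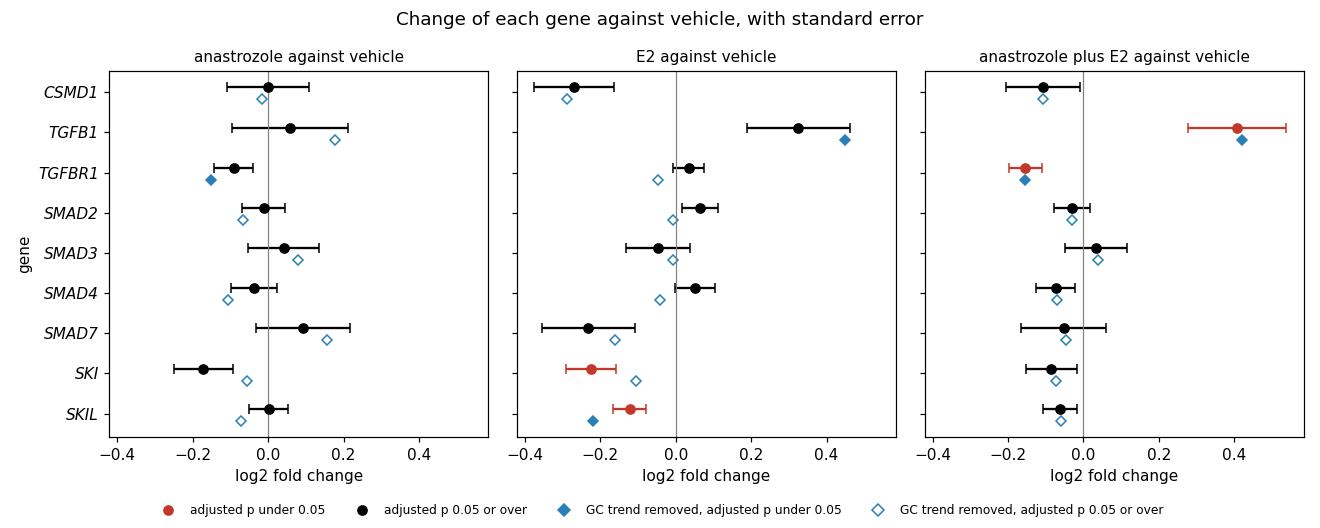
Log2 difference of each gene from vehicle (horizontal axis) in the 3 treatment groups, with SE, and the value with the GC trend removed (diamonds). Circles past the threshold are SKI and SKIL with E2, and TGFB1 and TGFBR1 with both agents; for E2, removing the GC trend brings SKI nearer to 0 and takes SKIL further from it.

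The treatments were also compared with one another. Anastrozole against E2 had 280 genes past the threshold (1.33%), and none of the members passed by edgeR, DESeq2 or limma-voom. At an unadjusted p under 0.05 there were 4 members by edgeR, 2 by DESeq2 and 4 by limma-voom, beside 1858, 840 and 2001 genes in all. SKIL passed once the GC trend was removed, higher with anastrozole by 0.16 (adjusted p = 0.00866, over alternatives up to 0.717). Both agents against anastrozole had 612 genes (2.9%) and again no member by any of the 3 tests, with 1, 0 and 1 members at an unadjusted p under 0.05, beside 2888, 1493 and 2845 genes in all. That member was TGFB1, at 0.35 (adjusted p = 0.17), which passed without anastrozole c (adjusted p = 0.0333). Between both agents and E2, SKI was at 0.14 (adjusted p = 0.232) and passed without E2 b (adjusted p = 0.0248), and SKIL was at 0.06 (adjusted p = 0.453) and at 0.16 (adjusted p = 0.00713) with the GC trend removed. The interaction, which asks whether both agents together differed from the sum of the single changes, had 2295 genes (10.9%). Among the members it held SKI alone, at 0.31 (SE 0.10, adjusted p = 0.0309), and at 0.09 (adjusted p = 0.817) with the GC trend removed. DESeq2 and limma-voom called no member. The SKI call was lost without vehicle c, anastrozole a or b, E2 a or c, or replicate c of the combination (adjusted p from 0.00404 to 0.144), and over the alternatives adjusted p ran from 0.0258 to 0.817. The interaction of SKIL was 0.06 (adjusted p = 0.696) and 0.23 (adjusted p = 0.00507) with the GC trend removed.

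The wider pathway list held 76 genes beside the 10, 71 of them over the floor in at least 1 library. With E2, 18 of the 76 (23.7%) passed, 9 higher and 9 lower, beside 12% of all genes. With both agents 12 passed (15.8%), 6 higher and 6 lower, beside 5.04%, and with anastrozole 3 passed (3.95%), beside 3.67%. Median log2 differences of these genes were 0.01 with anastrozole, 0.01 with E2 and -0.0071 with both, beside 0.00 over all genes. The shares of all genes include many genes with few counts. With filterByExpr, which drops such genes, 2602 of 14579 genes passed with E2, 911 of 14700 with both agents and 419 of 14594 with anastrozole. No reading of the list as a whole is drawn from these counts.

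KLF10, an early TGF-beta target that encodes a zinc finger repressor, rose with every treatment. It was at 55.9, 59.8 and 56.6 CPM in vehicle and at 73.6, 69.1 and 69.5 CPM with anastrozole. It was at 83.8, 86.7 and 76.7 CPM with E2 and at 79.0, 74.6 and 74.8 CPM with both. All 9 treated libraries were above all vehicle libraries. The log2 differences were 0.30 (SE 0.06, adjusted p = 0.000203), 0.52 (SE 0.05, adjusted p = 3.79e-22) and 0.41 (SE 0.05, adjusted p = 4.3e-13) for anastrozole, E2 and both. The change with both agents was smaller than the sum of the single changes, with an interaction of -0.42 (SE 0.07, adjusted p = 2.13e-06). These calls held without each library and with the GC trend removed, and only the anastrozole call was lost by another test (limma-voom, adjusted p = 0.0817). The other targets that passed with E2 were CDKN1A (0.12) and SNAI1 (0.73), both higher, and SKIL, described above. With both agents they were CDKN1A (0.17) and BHLHE40 (0.12).

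RUNX1, a nuclear partner of the SMADs, rose with E2 and with both agents. It was at 72.7, 80.8 and 75.0 CPM in vehicle and at 72.6, 74.9 and 75.9 CPM with anastrozole. It was at 99.8, 96.5 and 100 CPM with E2 and at 100, 110 and 98.4 CPM with both. The levels with E2, alone or with anastrozole, did not overlap the others. The log2 difference was 0.37 (SE 0.05, adjusted p = 1.82e-13) with E2 and 0.43 (SE 0.05, adjusted p = 1.26e-17) with both. Anastrozole gave -0.03 (SE 0.06, adjusted p = 0.863), and its direct difference from E2 was -0.40 (SE 0.05, adjusted p = 3.55e-12). Of the acetyltransferases that act with SMADs, CREBBP (-0.15) and EP300 (-0.16) were lower with E2.

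Among ligands and latency genes 4 of 14 were lower and none higher with E2, where 12% of all genes passed. With the GC trend removed 2 were lower and 1, TGFB1, was higher, LTBP1 and FURIN being lost. The 4 were TGFB3, the latent TGF-beta binding proteins LTBP1 and LTBP3, and the protease FURIN. TGFB3 was at 84.0, 80.9 and 77.3 CPM in vehicle and at 71.2, 68.8 and 67.2 CPM with E2, without overlap (log2 difference -0.23, SE 0.05, adjusted p = 0.000123). It was at 81.3, 80.5 and 78.01 CPM with anastrozole and at 77.4, 70.2 and 71.9 CPM with both, neither past the threshold. For both agents the log2 difference was -0.14 (adjusted p = 0.0642), which passed with a replicate block, with the GC trend removed (adjusted p = 0.0454), and without replicate a of the combination (adjusted p = 0.0206). Over all alternatives its adjusted p ran from 0.0184 to 0.299. With both agents LTBP1 and the integrin subunit ITGAV were lower. Among receptors and coreceptors, the pseudoreceptor BAMBI was lower with E2 (-0.17).

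The activin and BMP branch showed the largest fold among the SMADs. SMAD9, a BMP-responsive SMAD, was at 2.67, 2.51 and 2.96 CPM in vehicle and at 5.84, 4.61 and 5.69 CPM with E2 (log2 difference 0.97, SE 0.18, adjusted p = 6.89e-06). It was at 3.97, 4.35 and 3.58 CPM with anastrozole and at 4.01, 4.52 and 4.22 CPM with both, and all 9 treated libraries were above vehicle. The difference with anastrozole was 0.54 and did not pass (adjusted p = 0.151). That with both agents was 0.64 (adjusted p = 0.0217), a call lost by DESeq2 and limma-voom (adjusted p up to 0.217) and without vehicle a or b or replicate b or c of the combination (adjusted p from 0.0331 to 0.11). SMAD5 was 0.15 higher with E2, and 0.07 with the GC trend removed (adjusted p = 0.288). This call was also lost by limma-voom and without vehicle a or E2 c. INHBB, which encodes an activin subunit, was 76.1 ± 3.16 CPM in vehicle, 60.3 ± 1.99 with E2 and 63.7 ± 1.38 with both (SD, n = 3). With anastrozole INHBB was at 67.8 ± 2.58 CPM (log2 difference -0.17, adjusted p = 0.0878, edgeR). That difference passed only with 1 fit of all 12 libraries (adjusted p = 0.0325). BMPR1B, a BMP receptor, was 14.8 ± 0.58 CPM in vehicle and 9.63 ± 0.218 with both (log2 difference -0.62, SE 0.10, adjusted p = 4.23e-07). BMPR1B was at 13.4 ± 0.704 CPM with anastrozole and 12.3 ± 1.13 with E2, neither past the threshold. BMPR2 was also lower with both agents (-0.15).

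**Figure D4:**
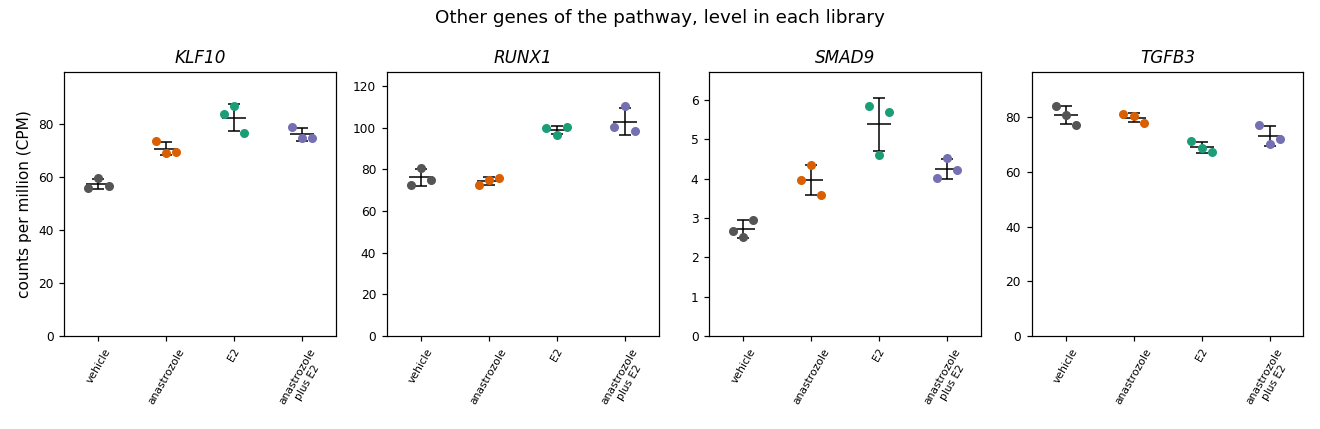
Level in CPM (vertical axes start at 0) of 4 other pathway genes in the 3 libraries of each group (points; horizontal bar, mean; whiskers, SD). KLF10 and SMAD9 are above vehicle in all 9 treated libraries, RUNX1 in the 6 libraries with E2, and TGFB3 has its lowest mean with E2.

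Among adaptors, ubiquitin ligases and phosphatases, the ligase WWP1 was higher with E2 (0.24) and with both (0.18), and the SMAD-binding protein LDLRAD4 was lower (-0.32 and -0.30). PPM1A, a SMAD phosphatase, was higher with anastrozole (0.16) and E2 (0.16), and RNF111 with E2 (0.15). With anastrozole the remaining call was LTBP3, lower by -0.17. The calls of PPM1A, of RNF111 and of LTBP3 with anastrozole were lost with the GC trend removed. PPM1A was then at 0.08 with anastrozole (adjusted p = 0.355) and at 0.05 with E2 (adjusted p = 0.525). RNF111 was at 0.09 with E2 (adjusted p = 0.326) and LTBP3 at -0.07 with anastrozole (adjusted p = 0.546). Of the 18 calls with E2, 8 (TGFB3, LTBP3, SMAD9, WWP1, LDLRAD4, RUNX1, KLF10 and INHBB) were kept without each library and in every alternative. The rest were lost at least once, with adjusted p up to 0.272 without 1 library, and up to 0.577 in another alternative. With both agents this held for 5 of 12 (LDLRAD4, RUNX1, KLF10, INHBB and BMPR1B), and with anastrozole for none of 3.

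The genes whose levels over the 12 libraries were most like those of SMAD3, among 11029 genes outside the members, were ZNF70 (Pearson r of log2 CPM 0.83), PACS1 (0.81) and ATG16L1 (0.80). For CSMD1 they were RBM20 (0.90), IFT172 (0.85) and CTSO (0.85). These values describe 12 libraries in 4 groups and the highest of many genes, and no p is given.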

How the data were processed

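TopHat2 2.0.14 with Bowtie2 2.2.6 placed the reads on hg19, and the authors deposited the htseq-count read count of each gene symbol. No htseq-count version, strand setting or annotation is stated in the sources used here, and they differ on single or paired ends, on polyA or total RNA and on the treatment time. The 5 summary lines were removed before totals were taken, and between 32.7% and 33.5% of each library's reads lay on genes. All 12 libraries were used, with 0 columns not used. Genes with no count (4238) were removed and 21132 tested.

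Differences were tested with edgeR 4.0.16 (R 4.3.3), TMM factors and robust quasi-likelihood F tests, each comparison on its own 6 libraries and the interaction on 12. Adjusted p is by Benjamini and Hochberg over all tested genes, with a threshold of 0.05. The SE is the absolute log2 difference over the root of F. Alternatives were DESeq2 size factors, filterByExpr, the DESeq2 1.42.0 Wald test, limma-voom (limma 3.58.1), 1 fit of all 12 libraries, a block for the replicate letter, each library's trend on GC content removed (lowess, span 0.5, genes of at least 3 log2 CPM), both of these, and leaving out each library. Promoters were taken from RefSeq. Gene positions, exon lengths and exon GC content came from GENCODE genes on GRCh37.

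Named genes were all members, from the other lists the 6 lowest adjusted p per comparison with vehicle, and every gene past the threshold where a list held at most 5 such genes in a comparison. Markers, absent genes and the values in the closing observations were chosen outside that rule, after the results were seen. Members and lists were chosen with earlier results of these data known.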

Additional observations from a re-analysis of the deposited data

Results flagged for a closer look

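SKI differed in its response to anastrozole with and without E2, by 0.3140 on the log2 scale (SE 0.105, adjusted p = 0.0309, edgeR). Anastrozole against vehicle gave -0.17 and both agents against E2 gave 0.14, so the directions were opposite and neither passed the threshold by itself. With the GC trend removed the difference was 0.09 (adjusted p = 0.817).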

How the results depend on the processing

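The limits are those of 3 libraries per group, whose labels do not say that they were separate cultures, so the p-values measure only the spread between these samples. Log2 differences followed GC content in most comparisons, and the source of that trend was not tested. For the 63 member results, 414 of 475 fits with other processing kept both the sign and the side of the threshold, 21 lost a call, 10 gained one and 30 had the other sign. With 1 library left out these numbers were 374 of 432, 20, 4 and 34. A lost call need not have a smaller value.

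The replicate letters may mark a block. Residuals of libraries sharing a letter had r between -0.20 and 0.18, and in no comparison did all 3 letters exceed 0.1. All 3 were positive for both agents against vehicle (0.139, 0.067 and 0.035) and against anastrozole (0.135, 0.007 and 0.048). With a replicate block, 1439 genes passed for both agents against vehicle, beside 1065 without it. For anastrozole against E2, 180 passed, beside 280. With 3 libraries per group these values do not settle whether the letters mark a block.

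For anastrozole against vehicle, members past the threshold, 0 in the first analysis, numbered 1 with the GC trend removed and 1 with the GC trend removed and a replicate block, and from 0 to 1 with 1 library left out. Pathway genes past the threshold, 3 in the first analysis, numbered 1 with filterByExpr, 1 with DESeq2, 0 with limma-voom and 5 with 1 fit of all 12 libraries, and from 1 to 6 with 1 library left out. Genes in all past the threshold, 776 in the first analysis, numbered 419 with filterByExpr, 238 with DESeq2, 15 with limma-voom and 1229 with 1 fit of all 12 libraries, and from 191 to 1651 with 1 library left out. With the GC trend removed the sign turned for SKIL (-0.0710, and -0.0641 with a replicate block too). With 1 library left out the sign turned for CSMD1 (-0.0555 to 0.0619), SMAD2 (-0.0470 to 0.0129), SMAD3 (-0.0083 to 0.1036), SMAD4 (-0.0815 to 0.0216), SMAD7 (-0.0832 to 0.1822), TGFB1 (-0.0647 to 0.1850) and SKIL (-0.0793 to 0.0629).

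For E2 against vehicle, members past the threshold, 2 in the first analysis, numbered 1 with filterByExpr, 0 with DESeq2, 0 with limma-voom, 1 with 1 fit of all 12 libraries and 1 with a replicate block, and from 0 to 2 with 1 library left out. Among the wider list, pathway genes past the threshold, 18 in the first analysis, numbered 11 with limma-voom, and from 13 to 18 with 1 library left out. Over the table, genes in all past the threshold, 2537 in the first analysis, numbered 1433 with DESeq2, 1379 with limma-voom, 1591 with the GC trend removed and 1510 with the GC trend removed and a replicate block, and from 1741 to 2808 with 1 library left out. The sign turned under GC correction for SMAD2 (-0.0067, and -0.0065 with a replicate block too), SMAD4 (-0.0416, and -0.0415 with a replicate block too) and TGFBR1 (-0.0481, and -0.0486 with a replicate block too). Leaving out 1 library turned the sign for SMAD3 (-0.0956 to 0.0196) and SMAD4 (-0.0007 to 0.0851).

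For anastrozole plus E2 against vehicle, members past the threshold, 2 in the first analysis, numbered 1 with filterByExpr, 0 with DESeq2, 0 with limma-voom and 1 with 1 fit of all 12 libraries, and from 0 to 2 with 1 library left out. Pathway genes past the threshold, 12 in the first analysis, numbered 5 with limma-voom, and from 9 to 13 with 1 library left out. Genes in all past the threshold, 1065 in the first analysis, numbered 463 with DESeq2 and 347 with limma-voom, and from 682 to 964 with 1 library left out. With 1 library left out the sign turned for SMAD3 (-0.0134 to 0.0707) and SMAD7 (-0.0913 to 0.0215).

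For anastrozole against E2, members past the threshold, 0 in the first analysis, numbered 1 with the GC trend removed and 1 with the GC trend removed and a replicate block, and from 0 to 0 with 1 library left out. Among the wider list, pathway genes past the threshold, 4 in the first analysis, numbered 2 with DESeq2 and 2 with limma-voom, and from 2 to 6 with 1 library left out. Over the table, genes in all past the threshold, 280 in the first analysis, numbered 160 with filterByExpr, 107 with DESeq2, 70 with limma-voom, 180 with a replicate block and 515 with the GC trend removed, and from 107 to 414 with 1 library left out. Leaving out 1 library turned the sign for SKI (-0.0168 to 0.1623).

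For anastrozole plus E2 against E2, members past the threshold, 1 in the first analysis, numbered from 1 to 2 with 1 library left out. Pathway genes past the threshold, 9 in the first analysis, numbered 3 with limma-voom, 2 with the GC trend removed and 2 with the GC trend removed and a replicate block, and from 5 to 9 with 1 library left out. Genes in all past the threshold, 1424 in the first analysis, numbered 647 with DESeq2, 451 with limma-voom, 824 with 1 fit of all 12 libraries, 186 with the GC trend removed and 197 with the GC trend removed and a replicate block, and from 885 to 1176 with 1 library left out. With the GC trend removed the sign turned for TGFB1 (-0.0277, and -0.0186 with a replicate block too).

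For anastrozole plus E2 against anastrozole, members past the threshold, 0 in the first analysis, numbered from 0 to 1 with 1 library left out. Among the wider list, pathway genes past the threshold, 6 in the first analysis, numbered 3 with DESeq2 and 1 with limma-voom, and from 2 to 13 with 1 library left out. Over the table, genes in all past the threshold, 612 in the first analysis, numbered 295 with filterByExpr, 236 with DESeq2 and 90 with limma-voom, and from 234 to 1706 with 1 library left out. The sign turned under GC correction for SMAD2 (0.0330, and 0.0322 with a replicate block too), SMAD4 (0.0327, and 0.0341 with a replicate block too), SKI (-0.0186, and -0.0164 with a replicate block too) and SKIL (0.0101, and 0.0105 with a replicate block too). Leaving out 1 library turned the sign for SMAD2 (-0.0445 to 0.0160), SMAD3 (-0.0709 to 0.0402) and SMAD7 (-0.2361 to 0.0288).

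For the interaction, members past the threshold, 1 in the first analysis, numbered 0 with DESeq2 and 0 with limma-voom, and from 0 to 1 with 1 library left out. Pathway genes past the threshold, 13 in the first analysis, numbered 7 with limma-voom, 4 with the GC trend removed and 4 with the GC trend removed and a replicate block, and from 8 to 14 with 1 library left out. Genes in all past the threshold, 2295 in the first analysis, numbered 553 with the GC trend removed and 645 with the GC trend removed and a replicate block, and from 1535 to 3202 with 1 library left out. With the GC trend removed the sign turned for SMAD2 (0.0417, and 0.0415 with a replicate block too), SMAD3 (-0.0319, and -0.0289 with a replicate block too), SMAD4 (0.0766, and 0.0781 with a replicate block too), SMAD7 (-0.0423, and -0.0380 with a replicate block too), TGFB1 (-0.2056, and -0.2022 with a replicate block too) and TGFBR1 (0.0459, and 0.0455 with a replicate block too). With 1 library left out the sign turned for SMAD3 (-0.0258 to 0.0901), SMAD7 (-0.0030 to 0.2625), TGFB1 (-0.1045 to 0.1474) and SKIL (-0.0055 to 0.1389).

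Removing the GC trend moved the genes past the threshold with anastrozole from 296 higher and 480 lower to 324 higher and 290 lower.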

Other observations

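Of the 76 other pathway genes, 4 (5.26%) passed for anastrozole against E2, beside 1.33% of all genes. For both agents against E2 9 (11.8%) passed, beside 6.74%, and against anastrozole 6 (7.89%), beside 2.9%. These shares of all genes include many genes with few counts, and no reading of the list is drawn. BAMBI was 0.30 higher with anastrozole than with E2 (adjusted p = 3.52e-06, edgeR), and TGFB3 was 0.22 higher (adjusted p = 0.00655). RUNX1 was 0.47 higher with both agents than with anastrozole alone (adjusted p = 2.47e-15), and BMPR1B was 0.48 lower (log2 difference -0.48, adjusted p = 0.00322). SMAD5 was lower with both agents than with E2 alone (-0.21, adjusted p = 3.88e-06). The BAMBI, RUNX1 and SMAD5 calls were kept in every alternative. TGFB3 was lost by DESeq2 and limma-voom (adjusted p up to 0.0994) and without anastrozole b, E2 b or E2 c (adjusted p up to 0.18), and BMPR1B by limma-voom (adjusted p up to 0.0518).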
